A study of Mus musculus with 10 samples.

Results

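Bhlhe40 and 9 other transcription factors of effector lymphocytes were followed across the genotypes: Bhlhe41, Batf, Irf4, Prdm1, Maf, Rora, Nfil3, Epas1 and Ahr. Every probe set that the array annotation assigns to one of these 10 genes was taken, which gave 27 of 45037 tested probe sets. Bhlhe40 was selected on these same intensities, because its signal was higher with homozygous SHP-1 loss than in wild type, so its values in that contrast are given as a description and carry no test. The RNA came from CD4+CD25+ cells, a fraction rich in regulatory T cells (Treg cells), taken from pooled lymph node sites of BALB/c mice at 17 to 19 days of age with an isolation kit. WT denotes wild type mice (4 arrays), he mice heterozygous for an SHP-1 knockout (3 arrays), and me mice homozygous for it, which have the motheaten phenotype (3 arrays). SHP-1, encoded by Ptpn6, is a tyrosine phosphatase that dampens antigen receptor and cytokine signals. The loss was in the germ line, so every cell type of these mice carried it. Biological replicates are what the labels call these arrays, with no word on separate animals, so the errors measure the spread between these arrays.

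BHLHE40 (DEC1) and BHLHE41 (DEC2) are basic helix-loop-helix repressors that bind E-box sequences, are induced by antigen receptor signals and also act in the circadian clock, where they oppose CLOCK and BMAL1. BATF, an AP-1 family protein, binds DNA together with IRF4, and the pair supports the effector programme of Treg cells and helper T cells. PRDM1 (Blimp-1) and MAF act downstream in many effector cells and both promote interleukin 10. RORA is a nuclear receptor of tissue Treg cells and innate lymphoid cells, NFIL3 (E4BP4) is a basic leucine zipper repressor with roles in clock output and lymphocyte development, AHR senses small aromatic ligands, and EPAS1 (HIF-2α) is stabilised by low oxygen.

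The promoter sequences bear on the part of the results that concerns E-boxes, the sites that BHLHE40, BHLHE41 and the clock activators share. RefSeq promoter entries (mouse build GRCm38.p6) were matched for 6 of the 10 genes: Bhlhe41, Batf, Irf4, Prdm1, Rora and Nfil3. The palindromic E-box CACGTG, which reads alike on both strands, was searched in the 250 bases before each annotated start and was present in 1978 of 32851 such windows (6.02%). Of the 6 matched genes, Bhlhe41 held it. Of the clock genes with a matched entry, Ciart, Per1, Cry1 and Tef held it too. The Bhlhe41 window is shown with those of Ciart and Per1, clock genes whose values are described further on. Each is written 5′ to 3′ on the strand of its gene, with the E-box in capitals. The Bhlhe41 window is chr6:145865421-145865670 on the minus strand, that of Ciart is chr3:95882229-95882478 on the minus strand, and that of Per1, the first of its 2 windows, is chr11:69098699-69098948 on the plus strand.
Bhlhe41: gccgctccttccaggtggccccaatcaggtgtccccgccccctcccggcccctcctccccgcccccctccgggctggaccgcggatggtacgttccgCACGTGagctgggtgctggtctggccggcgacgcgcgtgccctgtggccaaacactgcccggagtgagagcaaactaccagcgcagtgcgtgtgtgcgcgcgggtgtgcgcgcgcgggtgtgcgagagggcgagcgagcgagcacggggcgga
Ciart: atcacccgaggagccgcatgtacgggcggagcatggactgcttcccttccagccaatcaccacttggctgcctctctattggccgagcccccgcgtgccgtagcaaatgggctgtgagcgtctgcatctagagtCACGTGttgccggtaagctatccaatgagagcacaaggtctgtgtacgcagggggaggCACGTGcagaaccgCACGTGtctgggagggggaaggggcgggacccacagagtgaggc
Per1: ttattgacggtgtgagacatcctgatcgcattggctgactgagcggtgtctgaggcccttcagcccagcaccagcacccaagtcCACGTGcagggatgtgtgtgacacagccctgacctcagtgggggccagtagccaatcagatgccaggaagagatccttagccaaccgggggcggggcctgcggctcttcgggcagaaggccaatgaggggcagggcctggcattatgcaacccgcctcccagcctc
The E-box of Bhlhe41 begins 153 bases before the annotated start and that of Per1 begins 166 bases before it. Ciart, whose product CHRONO is a clock repressor, holds 3 E-boxes, which begin 116, 58 and 44 bases before its start. Such a window with 3 or more sites was found 20 times in 32851 (0.0609%). A match of letters describes the window and does not show that a factor binds there.

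The deposited values are linear intensities, with array medians from 148 to 188, and are given below as log2(intensity + 32) after quantile normalisation. By correlation the arrays fell into 2 sets that did not follow genotype, A (WT 1, WT 2, he 1, me 1 and me 3) and B (WT 3, WT 4, he 2, he 3 and me 2). The array me 3 lay between the rest of set A and set B. Both sets held arrays of every genotype, so differences are also given within sets and from a fit with array set as a block. Transcripts of the X and Y chromosomes put WT 2, WT 4, me 1 and me 2 down as male, and all remaining arrays, with every he array, as female. The cells carried the markers of their label: Foxp3 was 10.60 to 11.58, Il2ra (CD25) 10.00 to 10.64, Cd4 9.23 to 9.62 and Cd3e 9.72 to 10.24 over all arrays. Of 5 Cd8a probe sets, 3 lay between 7.14 and 8.13 on every array, each somewhat higher in set B than in set A without overlap. The other 2, both of the x_at type that can pick up related sequences, lay at 7.08 to 7.76 in set A and 11.14 to 12.45 in set B, so array sets and probe sets can disagree widely for a single gene.

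Ptpn6 values agreed in order with the genotype labels. At its brighter probe set (1456694_x_at) the log2 values were 9.55, 9.63, 9.83 and 9.81 in the WT arrays, 9.30, 9.33 and 9.54 in the he arrays and 8.84, 9.08 and 9.05 in the me arrays. The 3 groups did not overlap, although the highest he array lay just under the lowest WT array. Me minus WT was -0.72 ± 0.10 (log2, SE) and the he minus WT difference was -0.32 ± 0.10. Neither Ptpn6 probe set passed limma over the whole array for me minus WT. With array set as a block the limma adjusted p was 0.0549 at 1456694_x_at and 0.0908 at 1460188_at.

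Bhlhe40 transcripts were higher in me than in WT or he, and the he arrays lay within the range of WT. Its single probe set (1418025_at) read 10.20, 10.47, 10.15 and 10.55 in the WT arrays, 10.33, 10.41 and 10.25 in the he arrays and 10.96, 11.23 and 10.91 in the me arrays. All 3 me arrays lay above all 7 others, by 0.36 over the highest WT array and by 0.50 over the highest he array, while the WT and he arrays were interleaved. As group means this was 10.34 ± 0.20 (SD, n = 4) in WT, 10.33 ± 0.08 (n = 3) in he and 11.03 ± 0.17 (n = 3) in me. Me exceeded WT by 0.69 ± 0.12 (log2, SE), a 1.61-fold higher level. It was 0.60 within array set A, where me 1 and me 3 stood against WT 1 and WT 2, and 0.87 within set B, where me 2 stood alone against WT 3 and WT 4. With array set as a block it was 0.71 ± 0.11. The whole array gives the scale of these values: groups did not overlap, with me higher, at 361 of 45037 probe sets (0.802%), and of the 27 probe sets Bhlhe40 was the 1 that did so. This contrast chose the gene, so its place among the non-overlapping probe sets is not evidence for it. In bulk RNA of this kind, more cells that express a gene and more RNA per cell cannot be told apart.

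**Figure D1:**
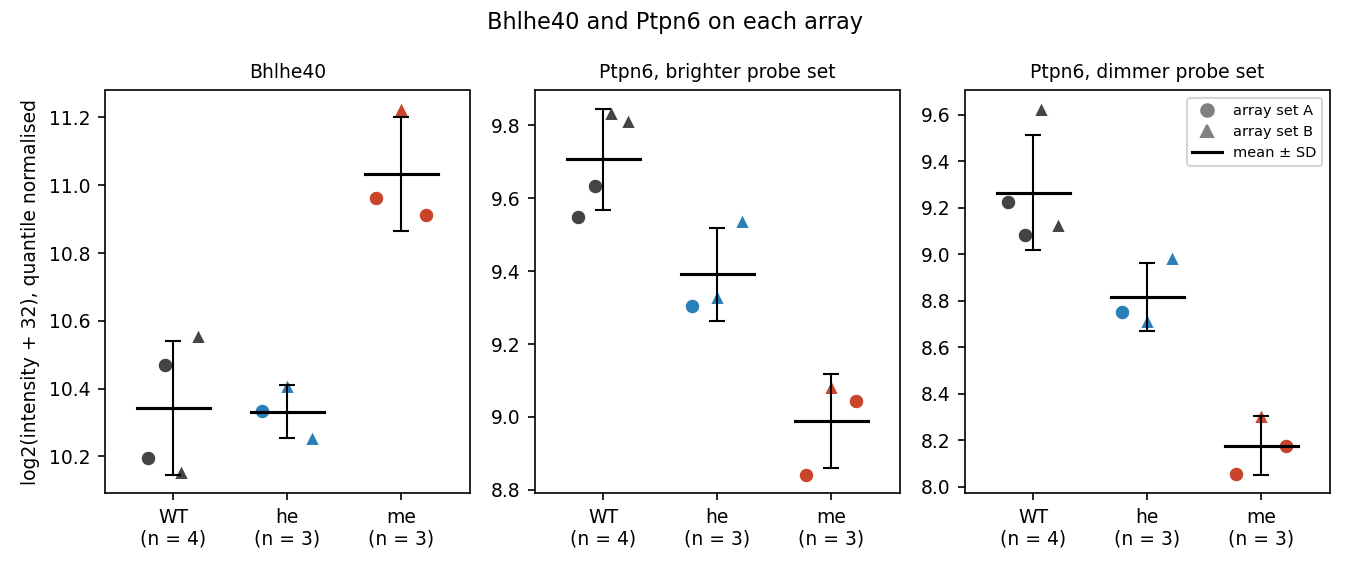
Log2(intensity + 32), quantile normalised, of Bhlhe40 and of the Ptpn6 probe sets on each of the 10 arrays, by genotype; points are arrays marked by array set and the bars are group means with SD. The 3 me arrays of Bhlhe40 lie between 10.91 and 11.23, above the WT and he arrays at 10.15 to 10.55.

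The same order was seen before normalisation. The deposited intensity of Bhlhe40 was 1566, 1531, 930 and 1370 in the WT arrays, 1704, 1077 and 861 in the he arrays and 2647, 1870 and 1836 in the me arrays. Every me array was above every WT and he array on this scale too, with he 1 the nearest of them. The mean intensity was 1349 ± 292 (SD) in WT, 1214 ± 438 in he and 2118 ± 459 in me, a 1.57-fold ratio of me to WT.

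No difference of Bhlhe40 was detected with loss of 1 copy of Ptpn6. The he minus WT difference was -0.01 ± 0.12 (log2, SE; limma adjusted p = 1.00), with a 95% interval of -0.29 to 0.26. Bhlhe40 was not selected on this contrast, but the contrast shares its WT arrays with the one that selected the gene. Within array sets he minus WT was 0.00088 in set A and -0.02 in set B. All he arrays were female, and in WT the male arrays (WT 2 and WT 4) read 0.34 higher for Bhlhe40 than the female arrays. Among female arrays alone he minus WT was 0.16, and with array set and sex both as blocks it was 0.11. Without normalisation between arrays it was -0.18. No probe set of the array was called between he and WT by limma (0%), with 134 at an unadjusted p under 0.05 (0.298%) and none of the 27 among them.

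Bhlhe40 was also higher in me than in he. The me minus he difference of Bhlhe40 was 0.70 ± 0.13 (log2, SE), 0.60 within set A and 0.89 within set B. It uses the same me arrays as the me minus WT value and is likewise a description. With array set and sex as blocks it was 0.54. The me minus WT difference was 0.74 among female arrays and 0.58 among male arrays, so me was higher in both sexes, with 1 me array among females and 2 among males.

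Markers of other cells and a measure of RNA quality also moved with the me arrays. The mean log2 level of 8 plasma cell markers was 8.43 to 8.55 in WT, 8.44 to 8.53 in he and 9.09, 8.76 and 9.24 in me 1, me 2 and me 3, and 7 of the 8 were higher in me. Jchain, the joining chain of polymeric antibodies, read 7.03 to 7.11 in WT and 9.82, 7.96 and 10.14 in me, and its difference from WT passed when me 2 was left out (2.93, limma adjusted p = 0.000127). The me array with the lowest plasma cell level, me 2, had the highest Bhlhe40. Myeloid markers, 12 of 12 higher in me, had means of 7.57 to 7.79 in WT, 7.57 to 7.90 in he and 7.68, 8.07 and 7.91 in me 1, me 2 and me 3, so here me 2 was the highest. The neutrophil genes S100a8 and S100a9 read 7.20 to 7.26 and 7.01 to 7.16 in WT, near the dim end of the array, and 7.43 to 8.10 and 7.22 to 7.66 in me. Gamma delta T cell and innate lymphoid cell markers (these cells can express Rora and Maf) had means of 8.78 to 9.13 in WT and 8.61 to 8.88 in me. Of the 7 measured, 2 were higher and 5 lower in me, with a median of -0.11 (-0.02 with array set as a block), and none passed limma in either fit. Cd163l1 and Trgv4 differed by -1.20 and -0.81 without overlap of me with WT, while Kit and Il7r differed by 0.41 and 0.44. B cell markers had means of 7.54 to 7.92 in WT and 7.63 to 7.94 in me, and Treg markers 10.95 to 11.12 and 11.09 to 11.28. Within each array set the me arrays had the highest B cell mean, while 5 of 9 B cell markers were higher and 4 lower in me than in WT. The share of these cells in the Bhlhe40 signal was not tested.

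**Figure D2:**
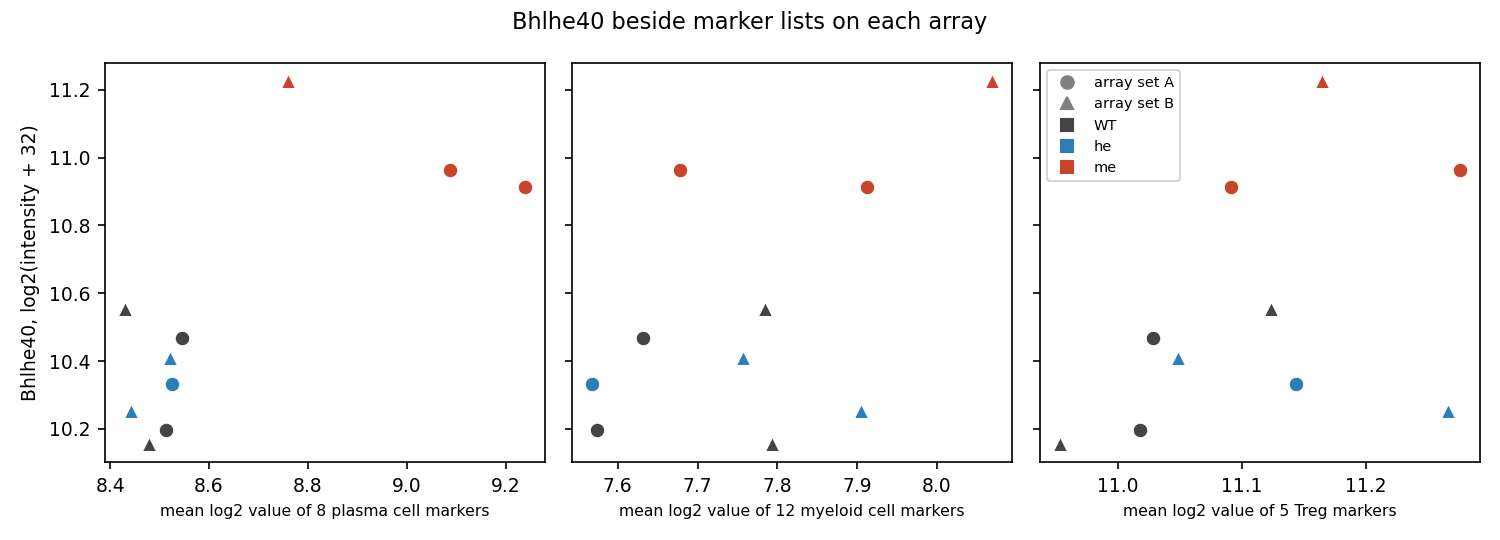
Bhlhe40 on each array (vertical axis, log2) against the mean log2 level of 8 plasma cell, 12 myeloid and 5 Treg markers (horizontal axes); each point is an array, coloured by genotype and marked by array set. The me arrays are the highest on the vertical axis, and me 2, the highest of them, has the lowest plasma cell level (8.76) and the highest myeloid level (8.07) of the 3.

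The ratio of the 3′ to the 5′ Gapdh control probe set, which grows as RNA is shortened, was 7.84 to 9.53 in WT, 7.88 to 9.71 in he and 10.88, 9.92 and 13.83 in me 1, me 2 and me 3. All me arrays were therefore above all others in this measure as well. With the ratio as a covariate the me minus WT difference of Bhlhe40 was 0.97.

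**Figure D3:**
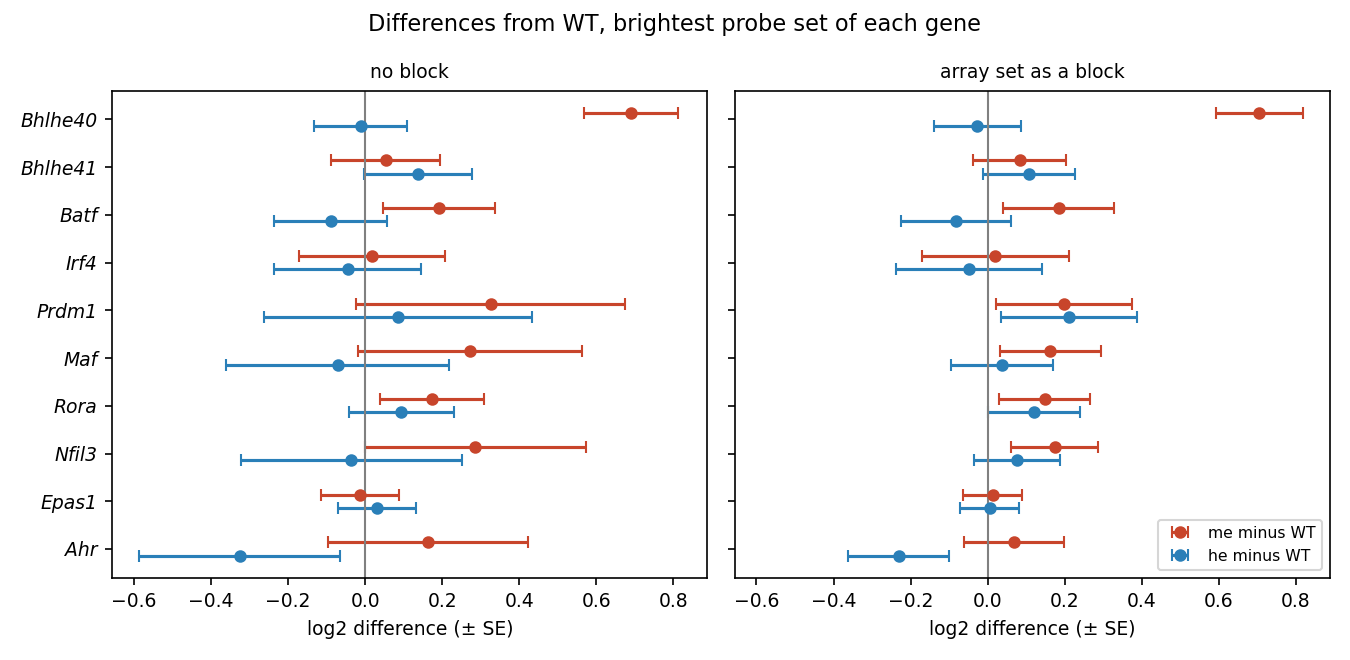
Me minus WT and he minus WT differences (log2, points with SE bars) of the brightest probe set of each of the 10 genes, from limma with no block (left) and with a block for array set (right). Bhlhe40 stands at 0.69 and 0.71 in me minus WT, and the other 9 genes lie between -0.01 and 0.33 there.

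No difference of its paralogue Bhlhe41 was called in either genotype. The brighter of its probe sets (1421099_at) read 7.59, 7.83, 7.88 and 7.94 in the WT arrays, 7.69, 8.07 and 8.08 in the he arrays and 7.67, 7.82 and 8.10 in the me arrays. The groups overlapped throughout, and me minus WT was 0.05 ± 0.14 (log2, SE) with a 95% interval of -0.27 to 0.37, against 0.69 for Bhlhe40. It was 0.37 among female arrays and -0.14 among male arrays. The other probe set (1457096_at) lay at 7.01 to 7.16 on all arrays, among the dimmest 7.41% of the array. Bhlhe41 itself carries the E-box shown above. The he minus WT difference was 0.14 ± 0.14.

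BATF and IRF4, which bind DNA as partners, had transcripts that did not part by genotype. Batf (1419410_at) read 9.48, 9.75, 9.49 and 9.73 in the WT arrays, 9.51, 9.22 and 9.85 in the he arrays and 9.91, 9.70 and 9.81 in the me arrays. The me arrays were in the upper part of the range but overlapped WT, and the difference was 0.19 ± 0.15 (log2, SE), 0.24 in set A and 0.09 in set B. WT males were higher than WT females by 0.26 for Batf, much as for Bhlhe40. Irf4 (1421173_at) read 9.44, 9.43, 9.53 and 9.88 in the WT arrays, 9.44, 9.25 and 9.88 in the he arrays and 9.69, 9.26 and 9.81 in the me arrays. Its difference between me and WT was 0.02 ± 0.19, with opposite signs in set A (0.32) and set B (-0.44), where the single me array was lower than both WT arrays. By sex it was 0.33 among female and -0.18 among male arrays. The second Irf4 probe set (1421174_at) differed by -0.03 ± 0.08.

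Transcripts of other AP-1 family members and of further factors listed with BATF and IRF4 were lower more often than higher in me, without a call. Of 14 listed genes, AP-1 members, PU.1, IRF8 and NFAT among them, 3 were higher and 11 lower in me than in WT, with a median of -0.09 (log2; -0.11 with array set as a block). Atf3, a stress-induced AP-1 family repressor, differed by -0.23 ± 0.10 (SE). Fos, an immediate early gene, differed by -0.27 ± 0.12 and its relative Fosb by -0.21 ± 0.10. Nfatc2, a calcium-dependent partner of AP-1, differed by -0.12 ± 0.09. None of the 14 passed the test over all probe sets (limma adjusted p = 1.00 for each of these 4 genes).

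For Prdm1, Maf and Nfil3 the spread between array sets was larger than any difference between genotypes. Prdm1 (1420425_at) read 8.81, 8.57, 7.64 and 8.28 in the WT arrays, 8.82, 7.92 and 8.49 in the he arrays and 8.99, 8.0 and 8.96 in the me arrays. The 5 highest values belong to the arrays of set A, and set B was lower by 0.76 on average. Me minus WT was 0.33 ± 0.35 (log2, SE) without a block and 0.20 ± 0.18 with one for array set, and he minus WT was 0.08 ± 0.35. Single arrays moved the me minus WT value of Prdm1, which was 0.10 without WT 3 and 0.66 without me 2. Prdm1 and Irf4 are also highly expressed by plasma cells, whose markers had means of 9.09, 8.76 and 9.24 in me 1, me 2 and me 3. The array me 2 was the lowest of the 3 in both genes as well. It was also the only me array of set B, and its Prdm1 value differed by 0.04 from the WT arrays of that set. The part of plasma cells in these values was not tested. Nfil3 (1418932_at) read 9.13, 9.17, 8.14 and 8.63 in the WT arrays, 9.21, 8.54 and 8.44 in the he arrays and 9.28, 8.72 and 9.15 in the me arrays. Set B was lower by 0.69, and me minus WT was 0.29 ± 0.29 without the block and 0.17 ± 0.11 with it. Within sets, Nfil3 differed by 0.07 in A and 0.34 in B, and it differed by 0.08 without WT 3 and 0.46 without me 2.

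Maf is covered by 6 probe sets, which did not all behave alike. The brightest (1447849_s_at) read 10.88, 11.38, 10.16 and 10.37 in the WT arrays, 10.93, 10.50 and 10.45 in the he arrays and 11.20, 10.61 and 11.09 in the me arrays. In set A the me arrays lay within the WT range, and in set B the me array was above both WT arrays. The difference was 0.02 in set A and 0.35 in set B, 0.27 ± 0.29 (log2, SE) over all arrays and 0.16 ± 0.13 with the block. It was 0.09 without WT 3 and 0.49 without WT 2. Of the 6 probe sets, 4 were lower in set B by 0.64 to 0.79, and the other two (1437473_at and 1447945_at) shifted by 0.15 and -0.01. Over the 6, me minus WT ran from -0.03 to 0.27 and he minus WT from -0.09 to 0.09.

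Rora, with 9 probe sets, was the most widely sampled of these genes. The brightest (1424034_at) read 10.50, 10.30, 10.26 and 10.49 in the WT arrays, 10.68, 10.23 and 10.53 in the he arrays and 10.81, 10.43 and 10.44 in the me arrays. The groups overlapped, and me minus WT was 0.17 ± 0.14 (log2, SE), or 0.05 without me 1, and he minus WT 0.09 ± 0.14. Over the 9 probe sets me minus WT ran from -0.02 to 0.24, while the shift between array sets ran from -0.94 (1436325_at) to 0.70 (1441085_at). A dim Rora probe set (1424035_at), below the median level of the array, read 7.29, 7.22 and 7.16 in he and 7.46, 7.37 and 7.45 in me without overlap. Its me minus he difference was 0.20 ± 0.09 (limma adjusted p = 1.00), its WT values of 7.22 to 7.54 spanned both groups, and me minus WT was 0.08 ± 0.09. Between me and he limma called no probe set (0%), and 301 had an unadjusted p under 0.05 (0.668%). Bhlhe40, selected for its high me arrays, is left out of this count, and none of the other 26 probe sets was among the 301. Groups did not overlap with me higher at 1.61% of the array, and 2 of the 27, Bhlhe40 and the dim Rora probe set, were among them. For Bhlhe40 this follows from its selection and is not evidence.

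The receptor AHR and the oxygen-regulated EPAS1 belong, like BHLHE40, to the helix-loop-helix proteins. Ahr (1422631_at) read 9.56, 9.72, 9.08 and 9.41 in the WT arrays, 9.60, 8.92 and 8.83 in the he arrays and 10.06, 9.15 and 9.60 in the me arrays. The he 2 and he 3 arrays were the lowest of all and me 1 the highest, with overlap between groups. Me minus WT was 0.16 ± 0.26 (log2, SE), or -0.06 without me 1 and 0.39 without me 2, and he minus WT was -0.33 ± 0.26, the most negative he value among the 10 brightest probe sets. A second Ahr probe set (1450695_at), annotated to the same transcript record, gave another picture: 7.86 to 7.98 on all 5 arrays of set A, and in set B 8.99 and 8.91 in WT, 9.27 and 10.02 in he, and 9.73 in me. It was thus higher in set B by 1.47, where the first was lower by 0.63, and within set B all 3 arrays with Ptpn6 loss were above both WT arrays. With array set as a block its differences from WT did not pass in either genotype, and the cause of the disagreement was not tested. Epas1 (1449888_at) read 7.58, 7.62, 7.77 and 7.76 in the WT arrays, 7.55, 7.88 and 7.71 in the he arrays and 7.52, 7.70 and 7.79 in the me arrays, close to the array median of 7.64; markers of endothelial and stromal cells, where Epas1 is high, had means of 7.49 to 7.61 on all arrays. Its difference was -0.01 ± 0.10 in me and 0.03 ± 0.10 in he.

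**Figure D4:**
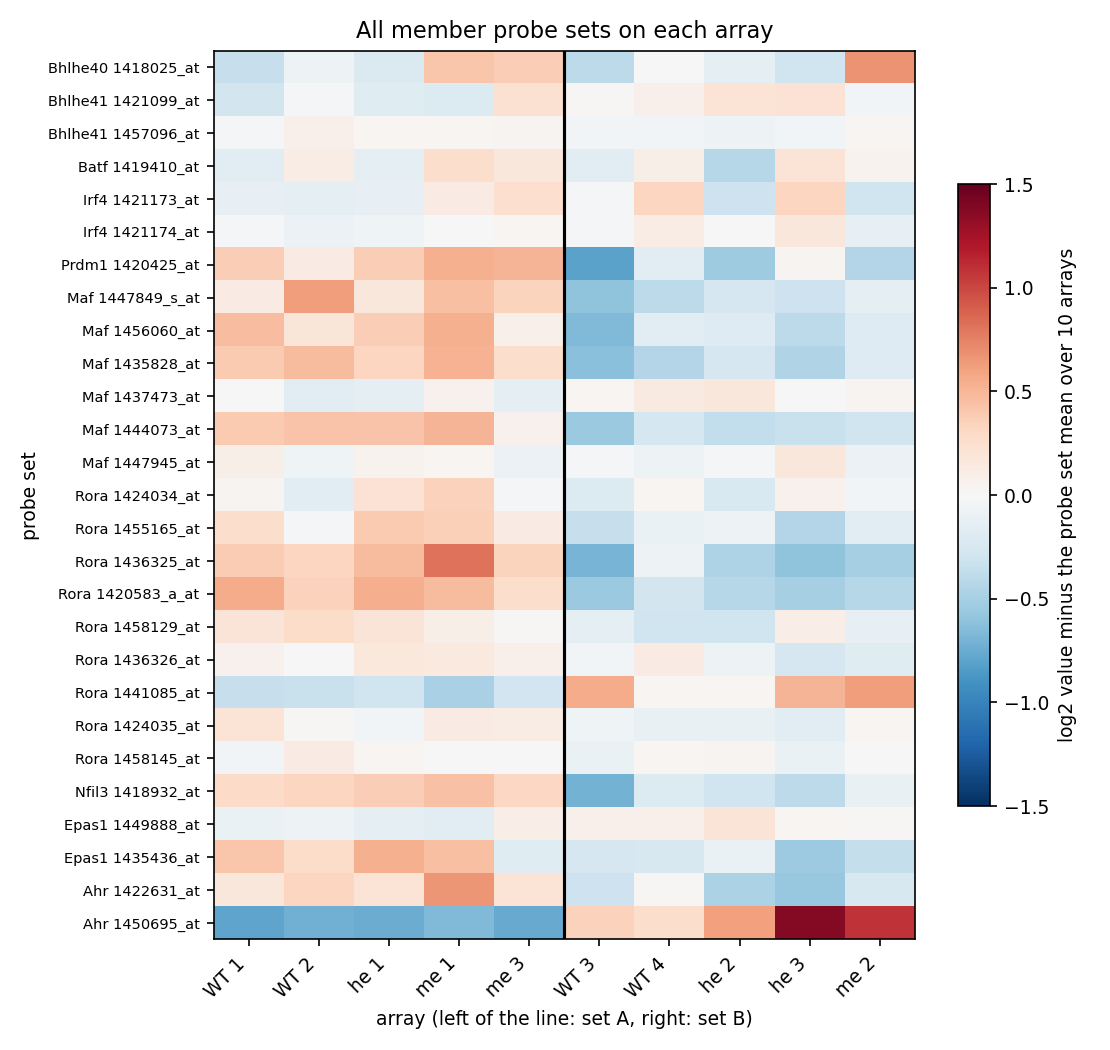
Each of the 27 probe sets (rows) on each of the 10 arrays (columns, ordered by array set and genotype), coloured by its log2 value minus the mean of the probe set over all arrays. The Bhlhe40 row is high on the me arrays of both sets, and rows of Maf, Prdm1, Nfil3 and Rora change mainly between set A and set B.

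Taking the 10 genes by their brightest probe sets, 9 were higher in me than in WT, with Epas1 the exception, and the median difference was 0.18 (log2). Without Bhlhe40, 8 of 9 were higher with a median of 0.17, or 0.15 with array set as a block, beside 9113 of 18193 genes (50.1%) and a median of 0.00017 over all genes. The genes were chosen with earlier results of these data known, so these counts are a description. Bhlhe40 carries no test in this contrast. None of the other 9 genes passed limma, in which no probe set of the array was called (0%). The targeted gene Ptpn6 was not called either, so the absence of a call in this fit does not show that a gene is unchanged. An unadjusted p under 0.05 was found for 282 probe sets (0.626%), with none of the other 26 among them. The adjusted p of the other 9 genes was 1.00. In the fit with the array-set block 3 probe sets of the array passed (0.00666%), none of the 27 among them. By probe set rather than by gene the leaning was smaller, with 18 of 27 higher and a median of 0.08 against 49.9% over the array. In he, 4 of the 10 genes (10 of 27 probe sets, against 46% over the array) were higher than in WT. The median over the genes was -0.02, or 0.02 with array set as a block. The members share arrays and tend to shift together between array sets, with 20 of 27 probe sets lower in set B, as were 26552 of 45037 over the array.

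With the cre hybridisation control as a covariate, Maf, Nfil3 and Ahr passed between me and WT, at differences of 0.68, 0.71 and 0.56 (limma adjusted p = 0.0336, 0.0242 and 0.0274), and also between me and he. Besides Ptpn6, of the other genes refitted in this way Ctla4, Arnt2, Ankrd37, Hif1a, Per1, Jchain and S100a8 were called higher in that fit and Ciart, Foxp3 and Cd8a lower. In it 10612 of 45037 probe sets passed, so these calls stand beside a shift of a large part of the array. The cre signal ran from 12.83 to 13.97 in set A and from 12.59 to 13.21 in set B. Within each set it was lowest in the me arrays, at 13.54 in me 1 and 12.83 in me 3 of set A and 12.59 in me 2 of set B. This covariate therefore follows genotype within array sets, and calls made with it cannot be told apart from that overlap. In the other settings with a test the limma adjusted p for me minus WT was 0.887 to 1.00 for Maf and Ahr and 0.876 to 1.00 for Nfil3.

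After centring within array sets, the 9 other genes differed in how closely they followed Bhlhe40 over the 10 arrays. Pearson r was 0.69 for Nfil3, 0.60 for Maf, 0.49 for Ahr and for Batf, 0.26 for Rora, 0.20 for Prdm1, 0.08 for Bhlhe41, 0.01 for Epas1 and -0.02 for Irf4. These are the brightest probe sets, and others of the same gene disagreed. Over all probe sets r ran from -0.56 to 0.60 for Maf and from -0.36 to 0.42 for Rora, and the dimmer Bhlhe41 probe set had 0.65. Without centring r was 0.34 for Nfil3 and for Maf, 0.33 for Ahr and 0.49 for Batf. The highest values among the other pairs were 0.71 for Irf4 with Prdm1 and 0.70 for Batf with Irf4 and for Prdm1 with Rora. All of these use the same 10 arrays and share their normalisation, and they are descriptions. Among 18811 other probe sets not below the median level, the 6 genes whose pattern was most like that of Bhlhe40 were Sin3b (r = 0.97), Casp4 (0.96), Syt11 (0.95), Pex11a (0.95), Glt28d2 (0.95) and Napsa (0.94). Syt11, a synaptotagmin of membrane traffic, read 8.73, 8.94, 8.66 and 8.77 in the WT arrays, 8.89, 8.87 and 8.54 in the he arrays and 9.16, 9.24 and 9.28 in the me arrays. Like Bhlhe40, its me arrays were above all others, and it was the 1 of the 6 with a like r without centring (0.90). Centring was by array set and not by genotype, so the high me arrays that selected Bhlhe40 enter each r. Genes ranked this way tend to be high in me by construction, which is not evidence of a shared response. Sin3b, a corepressor subunit, had an r of 0.57 and Casp4, an inflammatory caspase, of 0.51 without centring. This ranking was loose: with me 3 counted in the other array set, none of the 6 remained among the first 6, and without normalisation 1 did.

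Genes of the effector Treg programme leaned upward in me without a call. Of 24 measured genes 18 were higher and 6 lower in me than in WT, with a median of 0.14 (log2), which was 0.04 with array set as a block. Cxcr3, a chemokine receptor of type 1 inflammation, differed by 0.60 ± 0.27 (SE), Ctla4, an inhibitory receptor, by 0.67 ± 0.35 and Tnfrsf9 (4-1BB), a costimulatory receptor, by 0.41 ± 0.17. Cd44, an adhesion receptor of activated T cells, went the other way, with -0.32 ± 0.14. None passed (limma adjusted p = 1.00 for each of these 4 genes), but with the cre control as a covariate Ctla4 did, at 1.12 (limma adjusted p = 0.0250). In he 9 of the 24 were higher and 15 lower, with a median of -0.03, which was 0.03 with array set as a block.

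Transcription factors that hold T cells at rest did not lean either way, with 7 of 14 higher in me and a median of -0.0025 (log2). Foxp1, a keeper of quiescence, differed by -0.39 ± 0.32 (log2, SE), Bcl6, the factor of follicular T cells, by -0.28 ± 0.18, Klf3 by 0.38 ± 0.38 and Id3 by -0.14 ± 0.19. Of 18 other lineage factors 13 were higher and 5 lower, with a median of 0.09, or 0.03 with the block. Eomes, a factor of cytotoxic cells, read 7.52, 7.34, 7.56 and 7.44 in the WT arrays, 7.35, 7.61 and 7.47 in the he arrays and 7.94, 7.90 and 7.65 in the me arrays. Its me arrays were above all others, with a difference of 0.36 ± 0.10 from WT (limma adjusted p = 1.00). The mean of this dim probe set lay below the median level of the array. Of 10 CD8 and NK cell markers, 5 were higher in me, 2 of them without overlap with WT, and 5 were lower. The part of such cells in the Eomes values was not tested. Stat4, a mediator of interleukin 12 signals, differed by 0.43 ± 0.17, Ikzf2 (Helios) by 0.17 ± 0.11 and Stat6, a mediator of interleukin 4 signals, by 0.15 ± 0.17.

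Around AHR and the hypoxia factors, 14 of 20 measured genes were higher and 6 lower in me than in WT, with a median of 0.07 (log2), or 0.04 with the block. Arnt2, a dimer partner of this protein class, read 8.49, 8.67, 8.02 and 8.09 in the WT arrays, 8.39, 8.20 and 8.0 in the he arrays and 9.21, 8.66 and 8.69 in the me arrays. The me arrays were the highest of their own set, and the difference was 0.54 ± 0.20 (SE), 0.37 in set A and 0.61 in set B. Hif1a, the oxygen-regulated relative of Epas1, differed by 0.37 ± 0.21, Ankrd37, a hypoxia-induced gene, by 0.31 ± 0.16 and Ddit4 (REDD1), a stress-induced brake on mTOR, by 0.28 ± 0.27. None passed (limma adjusted p = 1.00 for each of these 4 genes), but with the cre control as a covariate Arnt2 (0.84), Ankrd37 (0.56) and Hif1a (0.67) did (limma adjusted p = 0.00993, 0.00993 and 0.0162). Between he and WT 6 of the 20 were higher and 14 lower, with a median of -0.06, or -0.03 with the block.

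The circadian genes, on which BHLHE40 and BHLHE41 act as repressors, showed no common direction in me. Of 18 measured genes 8 were higher and 10 lower than in WT, with a median of -0.02 (log2). Ciart read 7.94, 8.03, 8.16 and 8.05 in the WT arrays, 7.96, 8.08 and 7.91 in the he arrays and 7.78, 7.90 and 7.84 in the me arrays. Its me arrays were below every WT array and every he array, with a difference of -0.21 ± 0.07 (SE; limma adjusted p = 1.00), -0.18 in set A and -0.21 in set B. Groups did not overlap with me lower at 0.835% of the probe sets of the array. Per1, a core clock repressor with an E-box of its own, read 8.35, 8.54, 7.76 and 7.93 in the WT arrays, 8.29, 7.90 and 7.79 in the he arrays and 8.50, 8.22 and 8.47 in the me arrays. It was thus not lower in me, and differed by 0.25 ± 0.20, with 0.04 in set A and 0.38 in set B. Both genes passed with the cre control as a covariate, Ciart at -0.26 and Per1 at 0.55 (limma adjusted p = 0.0366 and 0.0214).

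**Figure D5:**
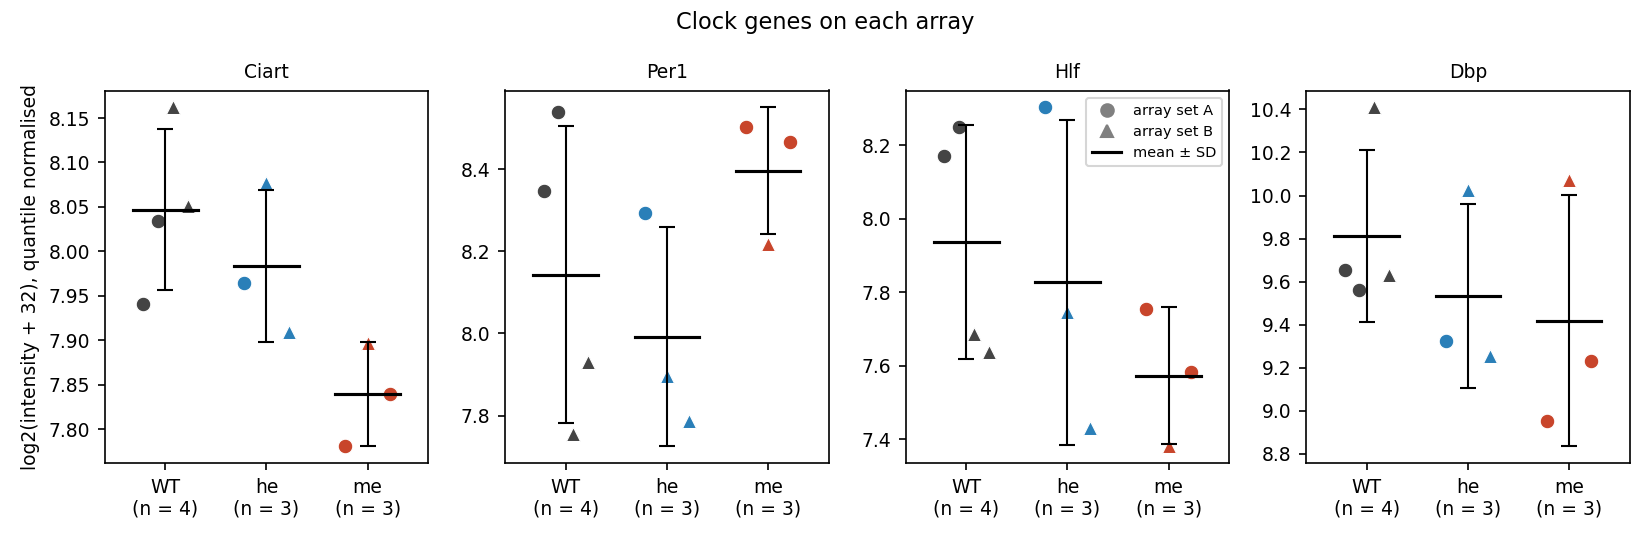
Log2(intensity + 32), quantile normalised, of Ciart, Per1, Hlf and Dbp on each array by genotype; points are arrays marked by array set, and bars are group means with SD. The me arrays of Ciart, at 7.78 to 7.90, lie below all others, and those of Per1, at 8.22 to 8.50, lie within the WT range.

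None of the PAR leucine zipper genes Hlf, Dbp and Tef, outputs of the clock that NFIL3 opposes at shared sites, was called in me. Hlf read 8.17, 8.25, 7.69 and 7.64 in the WT arrays, 8.30, 7.75 and 7.43 in the he arrays and 7.76, 7.38 and 7.58 in the me arrays. Each me array was below both WT arrays of its set, and the difference was -0.36 ± 0.23 (log2, SE) without the block and -0.45 ± 0.10 with it, and neither fit called it. Dbp differed by -0.39 ± 0.32, with -0.52 in set A and 0.05 within set B, and 1 WT array, WT 3, was well above the rest at 10.41. It ran from -0.73 (without me 2) to -0.16 (without me 1) when 1 array was left out. Tef, which also holds an E-box, differed by -0.07 ± 0.21, or 0.01 ± 0.10 with the block.

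Over the whole array the median difference of genes with the E-box lay close to 0, and its sign changed with the array-set block. Of 1262 measured genes with CACGTG in a window, 662 (52.5%) were higher in me than in WT, with a median of 0.0063 (log2), and of 13190 genes without it 6615 (50.2%) were higher, with a median of 0.00026. With array set as a block the medians were -0.0066 and -0.0013. The core GCGTG, searched on both strands as the centre of sites for AHR and its partner, was in 28.2% of windows and in those of Bhlhe41, Irf4, Prdm1 and Rora among the 6 matched genes.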

How the data were processed

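The authors deposited linear intensity values, 1 per probe set and array; how these were summarised and scaled is not stated in the sources used here. Per the labels, RNA was amplified from 20 ng. Of 45101 probe sets 64 controls were left out. A single gene is annotated to 34945 of the rest, more than 1 to 932 and no gene to 9160. Quantile normalisation of log2(intensity + 32) followed. The comparisons me minus WT, he minus WT and me minus he used limma 3.58.1 in R 4.3.3 (lmFit, eBayes, all 10 arrays, residual degrees of freedom 7) and a threshold of 0.05 after Benjamini-Hochberg adjustment over 45037 probe sets. A gene is represented by its brightest probe set. The number of arrays limits the precision.

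The 10 genes and the lists (178 of 194 entries measured) were chosen with earlier results of these data known. The rule for named genes takes all members, Ptpn6, up to 4 genes per list with the smallest p for me minus WT, the 6 genes most like Bhlhe40 and defining markers; other marker genes were chosen after their values were seen. Array sets came from average-linkage clustering of correlations. Promoter windows are RefSeq's (GRCm38.p6). The procedure was tested on simulated data. Alternatives covered normalisation, pseudocount, filter, blocks, quality covariates, groups fitted, prior and left-out arrays; within-sex values were added after seeing the data.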

Additional observations from a re-analysis of the deposited data

Results flagged for a closer look

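Of 61 values tested in the WT group, 2 stood far from the other 3 arrays, where chance alone marks about 1 in 20. Dbp, a clock output gene, read 10.41 (log2) in WT 3 against 9.56 to 9.65 in the other WT arrays. Cd3e, a chain of the T cell receptor complex, read 9.72 in WT 1 against 10.10 in each of the others. The 27 probe sets of Bhlhe40 and the other 9 factors were among the values tested, and none of them stood apart in this way.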

How the results depend on the processing

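The me minus WT difference of Bhlhe40 kept its direction under every alternative run, with values of 0.58 (male arrays) to 0.97 (Gapdh ratio as a covariate), and 0.61 to 0.77 when 1 array was left out; me minus he ran from 0.54 to 0.97. No probe set passed between he and WT in any setting with a test. Between me and WT the count, 0 without a block, was 3 with array set as a block (0 to 5 when 1 array was also left out), 10612 with the cre control as a covariate and 0 to 2 without 1 array; between me and he it was 8986 with the cre control and 0 to 2 without 1 array, 2 being reached without me 2. With the cre control the Ptpn6 differences passed at -0.85 and -1.20 (me minus WT) and -0.49 and -0.71 (me minus he), and without 1 array they ran from -0.77 to -0.63 and from -1.17 to -0.99 (me minus WT), from -0.40 to -0.27 and from -0.55 to -0.33 (he minus WT), and from -0.46 to -0.32 and from -0.72 to -0.56 (me minus he). Of the 6 genes most like Bhlhe40, 1 stayed among the first 6 without normalisation, 2 with centring on the median, 0 with me 3 in the other set and 1 to 5 without 1 array. The replicate numbers do not pair the arrays (correlations of deviations from -0.87 to 0.94), and with them as a block 0 probe sets passed in each comparison and me minus WT of Bhlhe40 was 0.76. Of the other differences that changed direction, Foxp3 with the cre control passed at its new value (limma adjusted p = 0.0273) and the rest did not pass or had no test; Cd8a, at -0.60 in the report's own fit, moved furthest. The cause of each change was not tested. With replicate number as a block (replicate block), me minus WT became 0.013 for Epas1 and 0.15 for Cd8a and he minus WT became 0.058 for Bhlhe40 and 0.058 for Irf4. With array set as a block, me minus WT became 0.013 for Epas1 and 0.15 for Cd8a and he minus WT became 0.037 for Maf and 0.076 for Nfil3 and me minus he became -0.014 for Prdm1 and 0.0078 for Epas1. With me 3 moved to set B in that block, me minus WT became -0.00099 for Irf4 and -0.0048 for Foxp3 and he minus WT became 0.029 for Maf, 0.069 for Nfil3 and -0.0032 for Epas1. With array set and sex as blocks, me minus WT became 0.032 for Epas1 and 0.14 for Cd8a and he minus WT became 0.11 for Bhlhe40, 0.0035 for Batf, 0.18 for Maf, 0.20 for Nfil3 and -0.046 for Epas1 and me minus he became 0.039 for Bhlhe41, -0.075 for Prdm1, -0.075 for Maf, -0.052 for Rora, -0.073 for Nfil3 and 0.078 for Epas1. With the Gapdh ratio as a covariate, me minus WT became -0.15 for Irf4, -0.20 for Prdm1, 0.020 for Epas1, -0.044 for Ahr, -0.10 for Stat6, 0.15 for Cd3e and 2.29 for Cd8a and me minus he became -0.10 for Irf4 and -0.27 for Prdm1. With the cre control as a covariate, me minus WT became -0.12 for Bhlhe41, -0.057 for Irf4, 0.082 for Id3 and -0.35 for Foxp3 and he minus WT became 0.071 for Maf, 0.11 for Nfil3 and -0.013 for Epas1. Within set A, me minus WT became 0.055 for Epas1, 0.015 for Cd3e and 0.088 for Cd8a and he minus WT became 0.00088 for Bhlhe40, -0.019 for Bhlhe41, 0.0051 for Irf4, 0.061 for Nfil3 and -0.052 for Epas1 and me minus he became 0.19 for Bhlhe41, -0.056 for Rora and 0.11 for Epas1. Within set B, me minus WT became -0.087 for Bhlhe41, -0.44 for Irf4, -0.092 for Ahr, 0.054 for Dbp and 0.26 for Cd8a and he minus WT became 0.21 for Maf and 0.11 for Nfil3 and me minus he became -0.30 for Irf4 and -0.20 for Prdm1. Among female arrays, me minus WT became 0.11 for Epas1 and he minus WT became 0.16 for Bhlhe40, 0.040 for Batf, 0.039 for Irf4, 0.11 for Maf and 0.10 for Nfil3. Among male arrays, me minus WT became -0.14 for Bhlhe41 and -0.18 for Irf4. Among female arrays these were 0.37 and 0.33. Without normalisation, he minus WT became -0.069 for Rora. With centring on the median, he minus WT became -0.089 for Rora. Leaving out 1 array at a time changed the direction of some differences, with ranges for me minus WT of -0.065 to 0.15 for Bhlhe41, -0.094 to 0.18 for Irf4, -0.074 to 0.063 for Epas1, -0.063 to 0.39 for Ahr, -0.13 to 0.041 for Cd3e, -0.12 to 0.33 for Foxp3 and -2.19 to 0.21 for Cd8a; for he minus WT of -0.075 to 0.058 for Bhlhe40, -0.26 to 0.066 for Batf, -0.23 to 0.094 for Irf4, -0.15 to 0.34 for Prdm1, -0.25 to 0.15 for Maf, -0.0069 to 0.22 for Rora, -0.27 to 0.11 for Nfil3 and -0.051 to 0.11 for Epas1; for me minus he of -0.21 to 0.015 for Bhlhe41, -0.077 to 0.25 for Irf4, -0.0050 to 0.58 for Prdm1, -0.044 to 0.18 for Rora and -0.13 to 0.039 for Epas1. With 3 or 4 arrays a group over 2 array sets the number of arrays limits every call. The me arrays share a higher Gapdh ratio and more signal of plasma cell markers. Within each array set they also had the highest means of myeloid and of B cell markers and the lowest cre signal. Across sets, me 1 lay within the WT range of myeloid markers, and me 1 and me 3 within that of B cell markers. None of these traits can be told apart from genotype here.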
